A study of Aspergillus nidulans with 4 samples.

Results

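Protein kinase genes outside the MAP kinase cascades of the mould Aspergillus nidulans were compared between a strain without the kinase gene mpkA (strain AN1404) and its parental strain (AN1405). Members were genes whose annotation text speaks of a protein kinase without certain words for MAP kinases, the cell cycle, mitosis, the spindle, DNA replication or ribosomes. Kinases tied to division in other words, such as AN3065, AN8827 and AN9504, stayed in. A few identifiers were set aside. This gave 69 of the 10930 genes in the tables. Of the 69 members, 6 are regulators or regulatory subunits of kinases by their wording. The other 63 were not checked further for being kinases, and they include AN4214, a cell-end marker whose text speaks of a protein kinase. Each strain had 2 libraries, and no other allele is named in the labels. Both strains were grown without added stress in a yeast extract and glucose medium at pH 3.3 and 28 °C, and mycelium was taken late in exponential growth, after about 20 h in the main culture.

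Protein kinases transfer the terminal phosphate of ATP to serine, threonine or tyrosine residues of other proteins, and protein phosphatases take it off again. In fungi, families outside the MAP kinase cascades carry calcium signals (calmodulin-dependent kinases), nutrient signals (cAMP-dependent and AMP-activated kinases) and the timing of transcription and growth (cyclin-dependent kinases and their cyclin partners). MpkA is the last kinase of a cascade that answers cell wall damage. The genes described here are those that their annotation wording does not place in such a cascade, and whether they act together with MpkA was not tested.

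The libraries held 31609185 to 34871842 reads on genes. The deleted gene mpkA (AN5666) had 6 and 3 reads in the deletion libraries, against 6993 and 6437 reads in the parental libraries, which fits the strain labels. Of 7 markers of conidiophores and conidia, 4 were lower, 1 higher and 2 not called in the authors' deposited table, and their summed normalized reads were 835 and 790 in the deletion libraries, against 1858 and 1734 in the parental libraries. That gap in the sums came from AN0422, a transcriptional activator of conidiation. Without it, a choice made after seeing the values, the other 6 markers summed to 708 and 664 in the deletion libraries, against 705 and 614 in the parental libraries. Opposed changes lie behind these near-equal sums. AN6635 averaged 419 normalized reads in the deletion strain, against 98.4 in the parental strain. In the same order of strains AN0973 averaged 29.5 against 70.4, AN8803 30.1 against 148 and AN8209 148 against 292. The hyphal genes for actin (AN6542) and for a class III chitin synthase (AN2523) averaged 114345 and 13860 normalized reads in the deletion strain, against 94195 and 13242 in the parental strain. Whether cell types in other proportions have a part in the results below was not tested, and in bulk RNA fewer cells of a type and less RNA per cell cannot be told apart. Nothing in the labels says which libraries came from separate cultures, so the spread behind each p-value is that of these libraries and may be only technical.

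Of 68 protein kinase genes tested in the authors' deposited table, 23 were called higher in the deletion strain, 33 lower and 12 not called, at a q-value under 0.05. Among all genes tested, 72.2% were called, 36.3% higher and 35.9% lower. The members called made up 82.4% of those tested, 33.8% higher and 48.5% lower. The median log2 change was -0.25 for the members and -0.02 for all genes. The quasi-likelihood test of edgeR on reads per library called 23 members higher and 36 lower of 66, against 86.5% of all genes called, 42.5% higher and 44.0% lower. With library totals as the scale edgeR called 17 members higher and 42 lower, against 86.3% of all genes called, 32.8% higher and 53.5% lower, and the median of all genes moved to -0.21 and that of the members to -0.45. All 33 genes called lower by the authors were also lower on that scale, and 17 of the 23 called higher stayed higher.

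Large changes were mainly falls. In the authors' deposited table, 11 members fell at least 2-fold and 2 rose at least 2-fold, which is 16.2% and 2.94% of those tested. The background was 18.1% of all genes lower and 9.12% higher by at least 2-fold, 27.2% in all. The share of members with large falls was thus close to that of all genes. Without the 6 regulators and regulatory subunits, 8 of 62 genes tested, 12.9%, fell at least 2-fold and 3.23% rose at least 2-fold. These differences from all genes were not tested. In the authors' deposited table, 31 of the 56 called members, 55.4%, changed by less than 1.5-fold, 18 of them higher and 13 lower, beside 39.1% of all called genes, and the difference was not tested. With a coefficient of variation of 0.2 assumed for every gene, 5 members remained called higher and 17 lower, against 43.9% of all genes called, 17.1% higher and 26.7% lower.

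**Figure D1:**
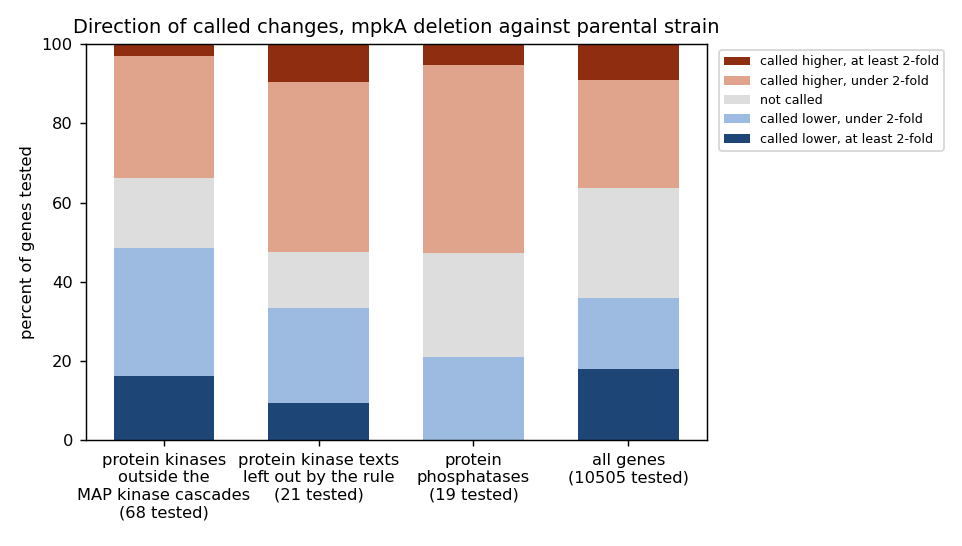
Stacked bars show the percent of genes tested (vertical axis) that were called higher or lower in the mpkA deletion strain, at least 2-fold or less, or not called, at the authors' q-value under 0.05. Of the protein kinases, 33.8% were higher and 48.5% lower, against 36.3% and 35.9% of all genes, while the phosphatases had 10 of 19 higher and 4 lower.

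Libraries of the same strain differed little for these genes. Over the 59 members with at least 20 reads in every library, the median absolute log2 difference between libraries was 0.042 in the deletion strain and 0.034 in the parental strain, while the median absolute log2 change between strains was 0.454. The normalized reads of the strains did not overlap for 62 of 68 members, 91.2%, against 87.7% of all genes, a share near that of the whole table.

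Together the members took 0.551% and 0.539% of the reads in the deletion libraries, against 0.740% and 0.728% in the parental libraries. The 3 genes with the most normalized reads, AN2265, AN9500 and AN2412, took 22.7% and 22.9% of the members' reads in the deletion libraries, against 27.1% and 27.1% in the parental libraries. Without them the shares of all reads were 0.426% and 0.416%, against 0.539% and 0.530%, so the members' lower share in the deletion strain did not rest on these genes alone. Such shares use library totals as the scale, on which genes in general were lower in the deletion strain. The median log2 change by edgeR on that scale was -0.21 for all genes and -0.45 for the members. Per length, the order of the most abundant members, which include the regulator gene AN9500, differed between strains. In the deletion strain AN2412 came first with 258 RPKM (reads per kb of gene span, scaled to the library's reads on genes), then AN8830 with 158 and AN2265 with 121. In the parental strain the order was AN9500 with 230, AN4984 with 202 and AN2265 with 200 RPKM, and AN2412 stood at 117. AN4984 and AN2265 did not differ beyond their spread in the parental strain.

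**Figure D2:**
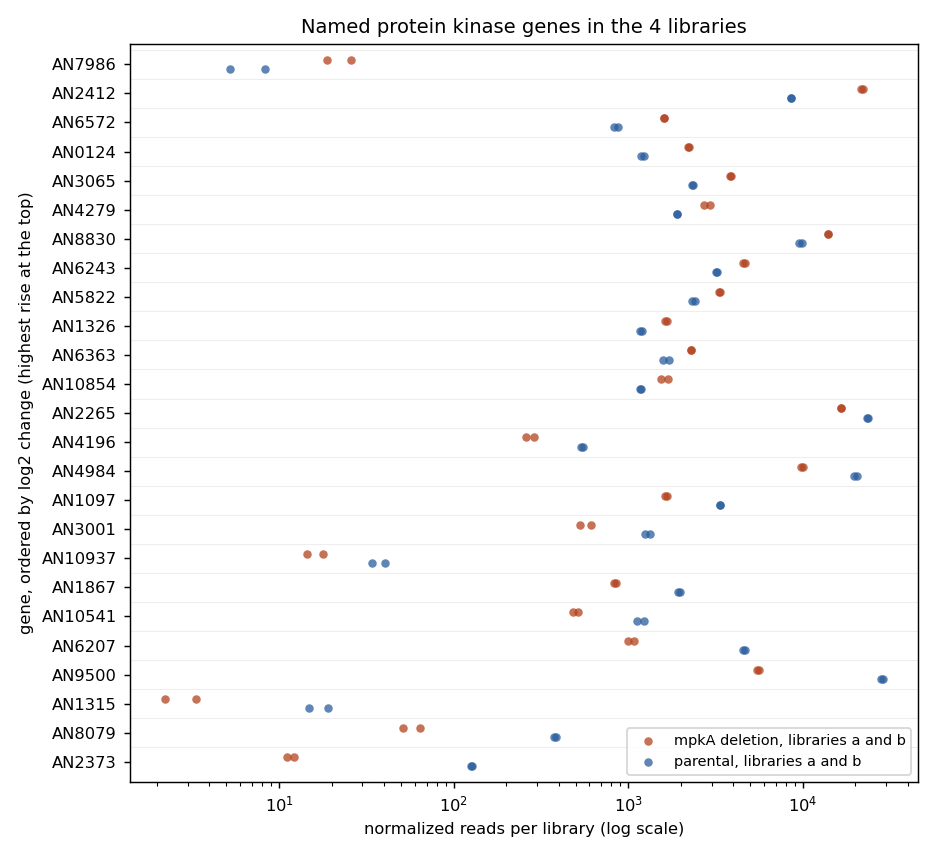
Normalized reads of 25 named genes in each library (horizontal axis, log scale), with the deletion libraries above the parental libraries in each row and genes ordered by change. In every row shown the points of the strains are apart, from AN7986, higher in the deletion libraries, down to AN2373. AN2373 had 12.2 and 11.2 normalized reads in the deletion libraries, against 125 and 128 in the parental libraries. Rows were chosen for called changes or a high mean, so this separation was largely set by the choice. The strains did not overlap for 87.7% of all genes.

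Of 5 calcium and calmodulin-dependent kinase genes, 4 were called higher in the deletion strain and 1 lower in the authors' deposited table, where 72.2% of all genes were called, 36.3% higher. With an assumed coefficient of variation of 0.2 the counts were 2 higher and 0 lower, against 17.1% and 26.7% of all genes. These enzymes are switched on when calcium-loaded calmodulin binds them. AN2412, calcium/calmodulin-dependent protein kinase A, lies at positions 3847405 to 3849802 of the plus strand (no chromosome is named). It had 22130 and 21543 normalized reads in the deletion libraries, against 8588 and 8499.6 in the parental libraries. It rose by 1.34 on the log2 scale (SE 0.03, edgeR adjusted p = 2.81e-17), and besides AN7986, a gene with few reads, it was the only rise past 2-fold. AN3065, annotated as essential and needed for nuclear division, had 3876 and 3804 against 2336 and 2312 normalized reads, a rise of 0.71 on the log2 scale (SE 0.03, edgeR adjusted p = 3.46e-12). AN4279 had 2940.1 and 2733 normalized reads in the deletion libraries, against 1899 and 1914 in the parental libraries (log2 change 0.56, SE 0.04). AN8827, also with a role in nuclear division, had 2758 and 2604 against 2163 and 2214 normalized reads. Its change was the smallest of the group (log2 0.27, SE 0.04), and with library totals as the scale it was no longer called (log2 0.08, edgeR adjusted p = 0.0604). AN7563 went the other way, with 3957 and 3818 normalized reads in the deletion libraries, against 5956 and 6125 in the parental libraries (log2 change -0.65, SE 0.03). The strains did not overlap for any of the 5, as for 87.7% of all genes.

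Cyclin-dependent kinases act only with a cyclin partner, and several of them act on transcription rather than on division. Of 5 such genes, 4 were lower, 0 higher and 1 not called in the authors' deposited table, where 35.9% of all genes were lower. With an assumed coefficient of variation of 0.2, 2 of the 5 were called lower, against 26.7% of all genes. AN4984, a putative member of the family and among the most abundant kinase genes, had 9961 and 9783 normalized reads in the deletion libraries, against 20373 and 19529 in the parental libraries (log2 change -1.03, SE 0.03, edgeR adjusted p = 1.89e-15). AN1867 had 851 and 833 against 1982 and 1936 normalized reads, a fall by 1.24 on the log2 scale (SE 0.04, edgeR adjusted p = 6.66e-14). Both fell past 2-fold, and no library of one strain reached those of the other. Falls this large were called for 18.1% of all genes, and libraries of the strains stayed apart for 87.7%. Such a lack of overlap was thus common among all genes. The changes of the other called cyclin-dependent kinase genes were small. AN8285, named kin28 in RefSeq after the Saccharomyces cerevisiae kinase of the general transcription factor TFIIH, had 1869 and 1875.5 normalized reads in the deletion libraries, against 2314 and 2474 in the parental libraries (log2 change -0.37, SE 0.04). AN2489, named ssn3 in RefSeq after the kinase of the Mediator complex in that yeast, had 884 and 848 against 1053 and 1066 normalized reads (log2 change -0.31, SE 0.05). AN8261 was not called, with 1377 and 1263 normalized reads in the deletion libraries, against 1315 and 1251 in the parental libraries (q = 0.665 in the authors' deposited table), and its libraries overlapped between strains. With library totals as the scale AN8261 was called lower (log2 -0.17, edgeR adjusted p = 0.0031).

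Genes annotated as regulators or regulatory subunits split into 3 higher and 3 lower in the authors' deposited table, beside 36.3% and 35.9% of all genes. All 3 falls exceeded 2-fold, a size of fall seen in 18.1% of all genes. With an assumed coefficient of variation of 0.2, 0 were higher and 3 lower, against 17.1% and 26.7% of all genes. AN9500 is annotated by domain for binding a kinase and regulating cyclin-dependent kinases. It had 5427 and 5613 normalized reads in the deletion libraries, against 28611 and 28194 in the parental libraries (log2 change -2.38, SE 0.03, edgeR adjusted p = 4.86e-20). The most abundant member of the parental strain per length, it stood at 38.5 RPKM in the deletion strain. A second gene with that wording, AN3755, had 2025 and 1891 against 1757.5 and 1766 normalized reads (log2 change 0.13, SE 0.04), and its sign turned with library totals as the scale (log2 -0.06). The other falls were of zinc-finger DNA-binding genes that carry a kinase regulator term, so these are transcription factor genes by annotation. AN8079 had 64.5 and 51.4 normalized reads in the deletion libraries, against 385 and 377 in the parental libraries (log2 change -2.73, SE 0.12). AN10541 had 513 and 480 against 1233 and 1129 normalized reads (log2 change -1.27, SE 0.06). AN4987, the putative regulatory subunit of protein kinase A, which holds that kinase inactive until cAMP binds, had 4189 and 4173 normalized reads in the deletion libraries, against 3182 and 3075 in the parental libraries (log2 change 0.40, SE 0.03).

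**Figure D3:**
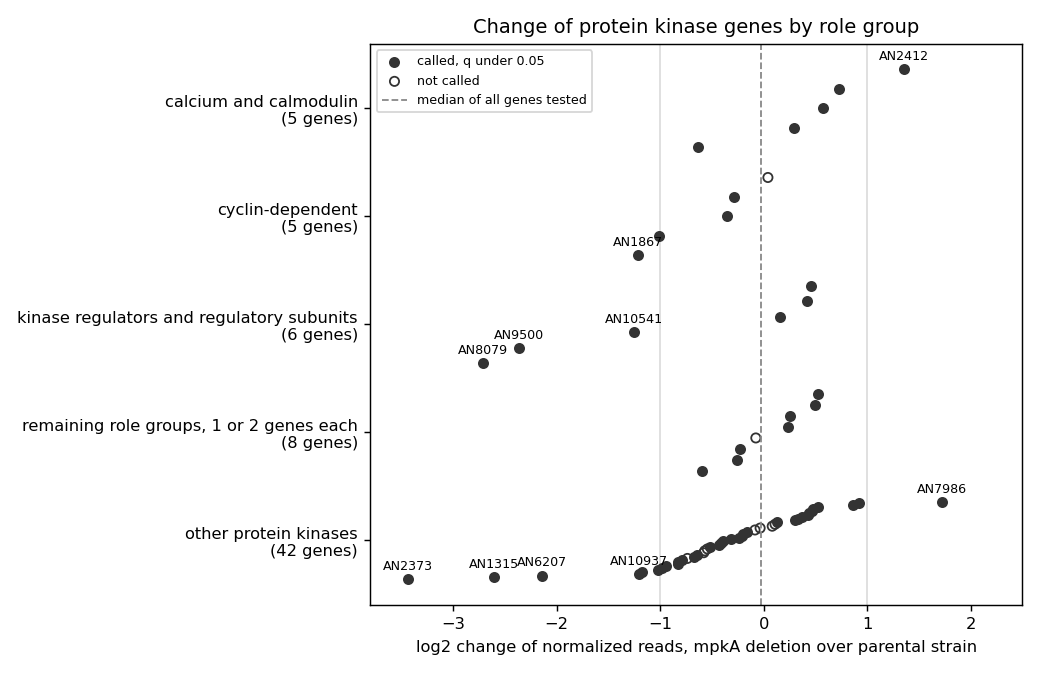
Log2 change of normalized reads in the mpkA deletion over the parental strain (horizontal axis) for the 66 genes with reads in both strains, by role group, with filled points for called genes, grey lines at 2-fold and a dashed line at the median of all genes. Calcium and calmodulin kinases lie mainly to the right, cyclin-dependent kinases to the left or near 0, and the largest falls are AN2373, AN8079, AN1315, AN9500 and AN6207.

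Members annotated for cAMP, protein kinase C or AMP-activated kinase differed in sign. A protein kinase A catalytic subunit gene, AN4717, had 2204 and 2215 normalized reads in the deletion libraries, against 2070 and 1976 in the parental libraries (log2 change 0.11, SE 0.04), and library totals turned it to a called fall (log2 -0.09, edgeR adjusted p = 0.035). AN4238, named schA in RefSeq and known for cAMP-dependent signalling in conidial germination, was lower, with 5384 and 5359 against 6515 and 6371 normalized reads (log2 change -0.28, SE 0.03). AN5973, similar to protein kinase C, had 11134 and 10525 normalized reads in the deletion libraries, against 9227 and 9178 in the parental libraries (log2 change 0.22, SE 0.03), and was not called with library totals as the scale. AN3110, annotated as a phosphoinositide-dependent kinase, was not called in the authors' deposited table (q = 0.145), while edgeR called it lower (log2 change -0.10, adjusted p = 0.0141) and its libraries did not overlap between strains. Genes of the AMP-activated kinase, which senses low energy charge, differed in sign. AN10854, named snf4 in RefSeq after a subunit of that kinase in yeast, had 1543 and 1686 normalized reads in the deletion libraries, against 1169.9 and 1188 in the parental libraries (log2 change 0.44, SE 0.05). AN6570, annotated by orthologs for AMP-activated kinase activity and a signalling scaffold, had 2003 and 1943 against 2337 and 2281.5 normalized reads (log2 change -0.25, SE 0.04).

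Among 6 genes whose text opens with the word essential, 4 were higher and 2 lower in the authors' deposited table. Of all genes 72.2% were called there, 36.3% higher and 35.9% lower, and a difference was not tested. The largest rise of these was AN0124, with 2223 and 2185 normalized reads in the deletion libraries, against 1183 and 1239 in the parental libraries (log2 change 0.85, SE 0.04). AN2927 was the largest fall of these, with 1816 and 1811 against 2829 and 2838 normalized reads (log2 change -0.66, SE 0.03). AN6363 rose by 0.45 on the log2 scale (SE 0.04), and AN5529, a kinase of the NDR family, which acts in polarity and cytokinesis in fungi, by 0.31 (SE 0.03). Single members with other roles in the annotation are given by their values. AN5822, a kinase of the DNA damage checkpoint, had 3297 and 3367 normalized reads in the deletion libraries, against 2407 and 2330.4 in the parental libraries (log2 change 0.47, SE 0.03). AN6243, imeB, which takes part in the light control of sexual development, had 4564 and 4646 against 3237 and 3163 normalized reads (log2 change 0.51, SE 0.03). AN4214, named teaR in RefSeq, is a cell-end marker at growing hyphal tips, and it is a member only because its annotation text speaks of a protein kinase. It was lower, with 2708 and 2774 normalized reads in the deletion libraries, against 3694 and 3609 in the parental libraries (log2 change -0.43, SE 0.03). AN9504, a kinase regulated through the division cycle, was lower as well, with 1865 and 1797 against 2478 and 2477 normalized reads (log2 change -0.45, SE 0.04). AN4385, of septation, the forming of cross-walls, was called higher (log2 change 0.24, SE 0.04), but not with library totals as the scale (log2 0.04, edgeR adjusted p = 0.357). The splicing kinase AN4936 had 3290.4 and 3288 normalized reads in the deletion libraries, against 5012 and 4923 in the parental libraries (log2 change -0.61, SE 0.03).

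Several abundant kinase genes stood outside these groups. AN8830, predicted to act in halotolerance, had 13873 and 13918 normalized reads in the deletion libraries, against 9822 and 9467 in the parental libraries (log2 change 0.51, SE 0.03). AN2265, a putative serine/threonine kinase, had 16440 and 16442 against 23622 and 23392.5 normalized reads (log2 change -0.53, SE 0.03). AN6207, described only as a putative protein kinase, was one of the largest falls of the set, with 1079 and 1003 normalized reads in the deletion libraries, against 4668 and 4514 in the parental libraries (log2 change -2.16, SE 0.04, edgeR adjusted p = 1.55e-17). AN6572, whose orthologs take part in making ubiquinone, the electron carrier of the respiratory chain, had 1601 and 1608 against 825 and 875 normalized reads (log2 change 0.90, SE 0.05). AN1097, annotated by orthologs for kinase activity and proteolysis, had 1675 and 1626 normalized reads in the deletion libraries, against 3333 and 3349 in the parental libraries (log2 change -1.04, SE 0.03). The casein kinase-type gene AN5757 was not called by the authors (q = 0.0642 in the authors' deposited table), with 7665 and 7698 against 8136 and 8060.4 normalized reads, although its libraries did not overlap and edgeR called it lower (log2 change -0.09, adjusted p = 0.00452).

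Members were also described by their kind of annotation, a split made after seeing the values, and the difference between kinds was not tested. In the authors' deposited table, 4 of 25 tested genes known only by a predicted domain were higher, 14 lower and 7 not called, with a median log2 change of -0.79. Among 39 described genes, 17 were higher, 17 lower and 5 not called, with a median of -0.08, beside 36.3% of all genes higher and 35.9% lower. Median levels were 2.80 RPKM in the deletion strain and 6.39 RPKM in the parental strain for genes with a predicted domain only, and 28.1 and 31.7 RPKM in the same order of strains for described genes. The part of level in the direction was not tested. AN2373 fell furthest of all members with reads in both strains, with 11 and 10 reads in the deletion libraries, against 144 and 139 in the parental libraries. The ratio of parental to deletion reads was 10.8 (exact 95% interval 6.95 to 17.8), and the interval covers counting error only. AN3001 had 615 and 527 normalized reads in the deletion libraries, against 1331 and 1255 in the parental libraries (log2 change -1.20, SE 0.06). AN4196 had 261 and 287 against 548 and 534 normalized reads (log2 change -0.98 in the authors' deposited table). In the other direction, AN1326 had 1628 and 1666 normalized reads in the deletion libraries, against 1169.9 and 1192 in the parental libraries (log2 change 0.46, SE 0.04).

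**Figure D4:**
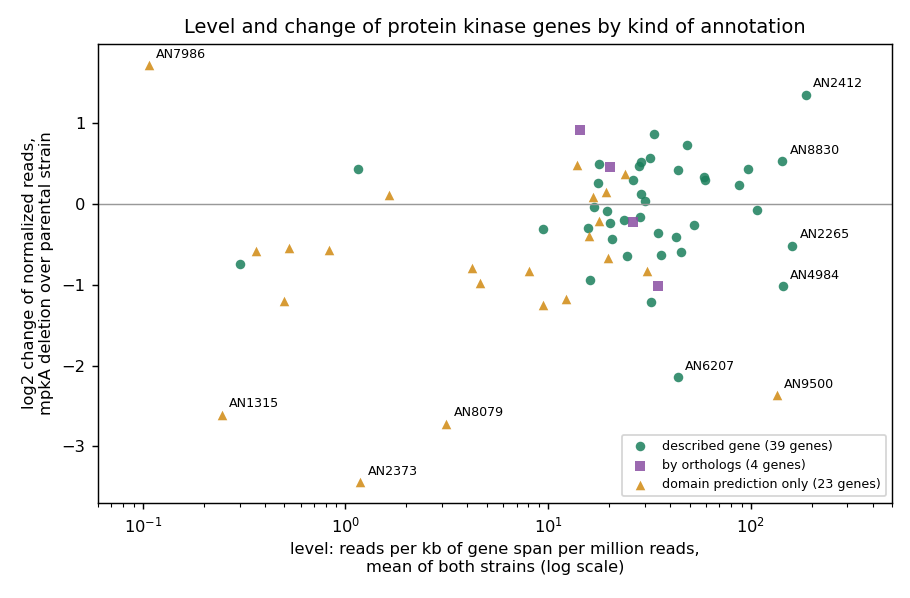
Log2 change in the mpkA deletion over the parental strain (vertical axis) against level in RPKM, mean of both strains (horizontal axis, log scale), for 66 genes by kind of annotation. The kinds overlap in level: AN9500, with a predicted domain only, has 38.5 RPKM in the deletion strain and 230 RPKM in the parental strain, while the medians of the kind are 2.80 and 6.39 RPKM.

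A few members were hardly transcribed in either strain. Under 150 normalized reads in both strains were 12 members, 11 of them known by a predicted domain only, and 4 of the 12 were called. Of all genes tested, at any level, 72.2% were called, and the share among genes with as few reads is not given here. Of the 4 called members with few reads, AN7986 was the only rise, with 17 and 23 reads in the deletion libraries, against 6 and 9 in the parental libraries. Its ratio of parental to deletion reads was 0.301 (exact 95% interval 0.155 to 0.558). For AN1315 the deletion libraries held 3 and 2 reads and the parental libraries 22 and 16, giving a ratio of 6.11 (exact 95% interval 2.40 to 19.9). AN10937 had 16 and 13 reads in the deletion libraries, against 39 and 44 in the parental libraries, a ratio of 2.30 (exact 95% interval 1.49 to 3.64). AN10325 had 0 reads in the deletion libraries and 1 read in the parental libraries, AN11814 had 0 against 3, all in 1 library, and AN10819 had 0 in all 4 libraries and was not tested. At this depth no difference could be detected for these 3 genes.

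The library kit does not mark the strand, so reads in stretches shared with a gene on the other strand cannot be assigned. Among the 65 members that RefSeq places on a chromosome, 7 overlap such a gene. The longest overlap was that of AN4196 with AN4195, 851 of 2784 bp, and AN4195 was lower too in the authors' deposited table (log2 change -1.70). AN6768 shares 647 of 3424 bp with AN6769, which had a log2 change of -0.85 beside -0.79 for AN6768 in the authors' deposited table. The positions of AN11101 in the files, 3104055 to 3108044 on the minus strand, span those of AN6768 on the plus strand, but AN11101 is not placed in RefSeq, so whether they overlap was not determined. For AN6192 and AN6363 the partners moved the other way or further, with log2 changes of 1.99 for AN6191 beside -0.83 for AN6192 and of 1.43 for AN6362 beside 0.47 for AN6363, in the authors' deposited table.

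Neighbouring kinase genes did not all move together. At 4 places 2 members lay with no more than 2 genes between them in RefSeq, and their changes here are those of the authors' deposited table. AN4984 and AN4987 had log2 changes of -1.01 and 0.42, and AN6570 and AN6572 of -0.23 and 0.92, so these pairs were opposed. AN8830 and AN8827 were both called higher, with log2 changes of 0.53 and 0.29. AN9022 was called higher and AN9024 was not called, with log2 changes of 0.37 and 0.08.

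Among 19 protein phosphatase genes, the enzymes and subunits that act against kinases, 10 were higher, 4 lower and 5 not called in the authors' deposited table, with a median log2 change of 0.14. Of all genes 72.2% were called, 36.3% higher and 35.9% lower. With library totals as the scale, which moves all genes downward, edgeR called 6 phosphatase genes higher and 9 lower, against 32.8% and 53.5% of all genes. AN6040, annotated for phosphoprotein phosphatase and thiosulfate sulfurtransferase activity, had 788 and 918 normalized reads in the deletion libraries, against 313 and 326 in the parental libraries (log2 change 1.40, SE 0.08). AN10088, for an activator of type 1 phosphatase, had 2604 and 2746 against 1563 and 1676 normalized reads (log2 change 0.71, SE 0.04). AN3793, the catalytic subunit of phosphatase Z, had 3498 and 3524 normalized reads in the deletion libraries, against 5765 and 5699.6 in the parental libraries (log2 change -0.73, SE 0.03). The 21 protein kinase texts left out of the set include mpkA itself and genes of other MAP kinase cascades. They were left out for a MAP kinase, cell division or ribosome word or by identifier. Of these, 11 were higher, 7 lower and 3 not called in the authors' deposited table. Whether the kinase set differs from these lists in direction was not tested, and each comparison uses the same 4 libraries.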

How the data were processed

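Libraries were made from total RNA with a TruSeq RNA kit, per the labels. The submitters' processing notes name Bowtie2, HTSeq and DESeq, while of tool versions, build and counting options nothing is given in the sources used here. Deposited signal values are strain means, made by the authors from reads per gene divided by a size factor of each library. The deposited ratio (fold) has the parental strain on top, and log2 changes here are of its inverse. P-values and q-values were computed by the authors, and a gene was called at a q-value under 0.05. A further 2 columns of other samples were left unused.

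The mean of a strain is given in 2 tables that differ in size factors, and the pair of equations was solved for whole reads in both libraries, called a and b. Solutions were within 0.25 reads of whole numbers for 100% of the 10930 genes in each strain, and none was further off than 0.101 reads in the deletion strain and 0.155 in the parental strain. Reads were tested by quasi-likelihood in edgeR 4.0.16 (R 4.3.3) after TMM scaling and filterByExpr, with p-values adjusted by Benjamini and Hochberg over the 9338 genes kept, of which 66 were members. All adjusted p-values and SEs not credited to the authors are from this fit. The SE was taken as the size of the log2 change over the root of its F value. The solving and the test were checked on simulated data. All 56 members called by the authors were called by edgeR with the same sign, and edgeR called 3 more. Levels (RPKM) use the gene span in the files and all reads on genes. With 2 libraries against 2, a permutation test cannot go below p = 0.333.

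The members, the lists and the rules were chosen with earlier results of these data known. Named genes are the 12 largest called rises and falls, the 5 with the highest mean, the largest called change in each role group of at least 3 members and the 3 largest changes among phosphatases. Further members were named to give the levels of a role group. Role groups rest on words in the annotation. The word match put AN6570 with TOR kinases through the phrase receptor signaling, so it is described by its annotation instead. Symbols are from RefSeq (ASM1142v1), which held 65 members. No sequences were used here.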

Additional observations from a re-analysis of the deposited data

How the results depend on the processing

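Counts of called members stayed within 1.5 times the main counts under edgeR, DESeq2 1.42.0, library totals, DESeq2 size factors, no filter and without any 1 library. Without any 1 library, 21 to 23 were higher and 34 to 37 lower, with 2 higher and 11 to 13 lower by at least 2-fold. Library totals gave 17 higher and 42 lower, against 32.8% and 53.5% of all genes, and DESeq2 21 higher and 33 lower. The exception was an assumed coefficient of variation of 0.2, which left 5 members higher and 17 lower, against 17.1% and 26.7% of all genes. Shares over all genes are not given here for DESeq2 or for the fits without 1 library. The median log2 change of the members was -0.26 to -0.23 without any 1 library and -0.45 with library totals, where all genes shift downward. For phosphatases library totals gave 6 higher and 9 lower, and the assumed spread 2 higher and 1 lower. Without any 1 library 10 to 11 phosphatases were higher and 4 to 6 lower. The 28 named genes kept direction and call in 272 of 280 refits. The 8 that lost their call did so under the assumed spread, and were AN10854, AN1326, AN2265, AN4279, AN5822, AN6243, AN6363 and AN8830. No paired analysis was possible because the recovered libraries carry no replicate number. Depth limits genes with few reads, such as AN1315 and AN7986.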
